A study of Homo sapiens with 8 samples.

Results

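The keratin gene clusters are the chromosome stretches on which most human keratin genes stand side by side. Peaks were taken as members where a deposited ChIP-seq interval overlapped the type II cluster on chromosome 12 (chr12:52560000-53360000, hg19) or the type I cluster on chromosome 17 (chr17:38800000-39800000). Of 24078 peaks in 7 lists, 38 met this rule, 30 of them in the type II cluster and 8 in the type I cluster. The members were chosen by measured values, the positions of the called peaks, and the clusters with these positions known, so the counts below are descriptions and no test was run on them. There was 1 sample per factor and cell line.

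Chromatin immunoprecipitation with sequencing (ChIP-seq) maps where a protein sits on DNA. DU145, a prostate cancer epithelial line, was immunoprecipitated with antibodies to ETS1, ELF1, ELK4, GABPA or JUND, and PANC1, a pancreatic cancer line labelled epithelial-like, with an antibody to ETS1 from another lot of the same product. The growth protocol of the PANC1 samples names DU145 cells, and the line was taken here from the sample titles. The labels name no treatment, and the growth protocol allows for puromycin selection without saying which cells were selected. The DU145 ETS1 sample has 2 lists, counted as 1 sample. Input samples of both lines were not used here. ETS1, ELF1, ELK4 and GABPA share the ETS domain, which reads a GGAA core, and JUND is an AP-1 subunit.

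Keratins form the intermediate filaments of epithelial cells, as pairs of a type II and a type I protein. KRT8 pairs with KRT18 in simple, single-layered epithelium, where KRT7 and KRT19 are further partners. KRT5 pairs with KRT14 in the basal layer of stratified epithelium, and KRT17 is a type I keratin of basal and stressed epithelium. KRT18 is the exception to the map, because this type I gene lies in the type II cluster beside KRT8. Gene positions were those of the rule, rounded to 1 kb, and a peak was assigned to a gene within 10 kb of that position.

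All 4 simple epithelial keratin genes had a DU145 ETS1 peak in both lists within 10 kb, namely KRT7, KRT8, KRT18 and KRT19. None of the 3 basal or stress keratin genes, KRT5, KRT14 and KRT17, had a peak of any of the 7 lists there. By the rule positions, JUND had a peak near 2 of the 7 genes, KRT7 and KRT18. For KRT8 this may depend on the start chosen, as described below. ELF1, ELK4, GABPA and PANC1 ETS1 had a peak near none. As a background, 6.42% of the genome span of the lists lies within 10 kb of a peak of the first ETS1 list, 5.76% of the second and 0.848% of the JUND list. For GABPA the share is 1.66%, for PANC1 ETS1 0.248%, for ELK4 0.232% and for ELF1 0.176%. Gene starts differ from other positions, and the genes were named with the peaks known, so the background gives a scale and not a test.

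**Figure D1:**
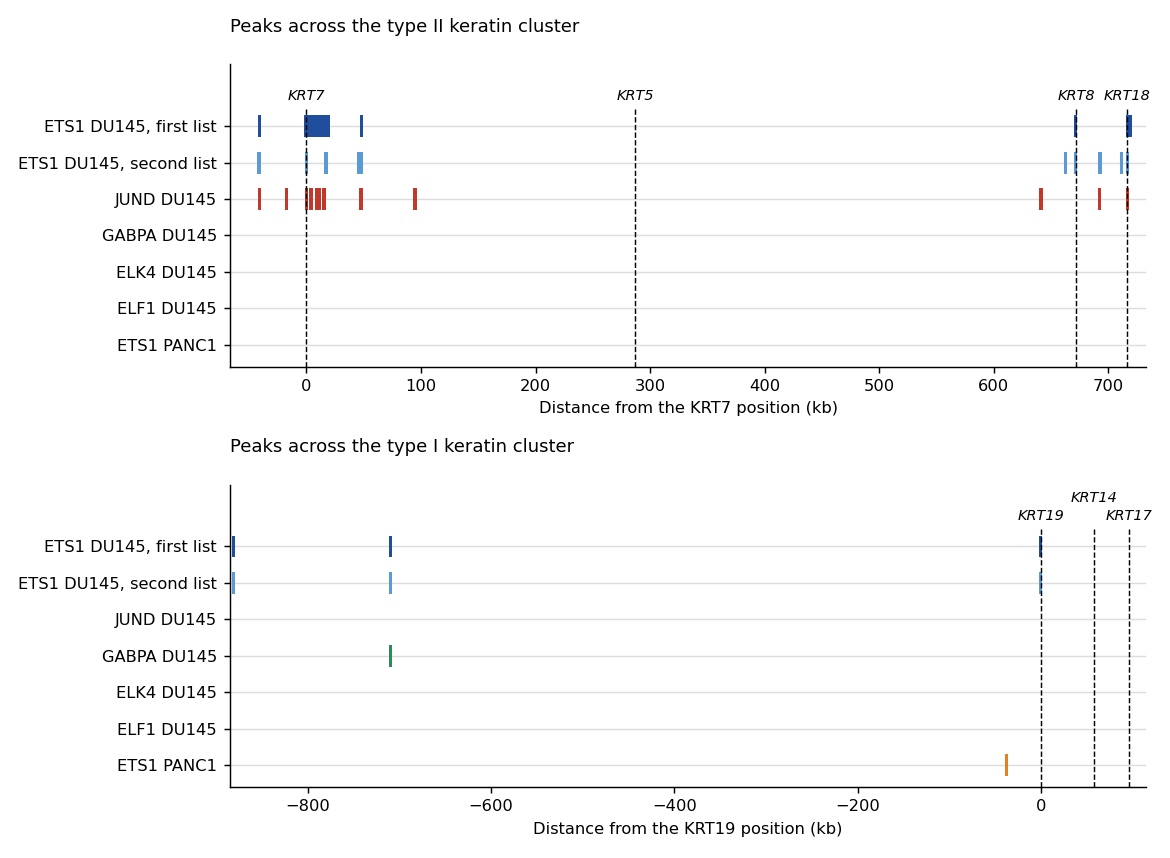
Peaks of the 7 lists across the type II cluster (top, distance in kb from the KRT7 position) and the type I cluster (bottom, distance in kb from the KRT19 position). Each row is a list, each block a peak, drawn at least 3 kb wide so that it can be seen, and dashed lines mark the 7 genes. ETS1 blocks stand at KRT7, KRT8, KRT18 and KRT19, JUND blocks appear in the type II cluster alone, and a wide stretch around KRT5 is empty.

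The lists divided unevenly between the clusters. The first ETS1 list had 8 peaks in the type II and 3 in the type I cluster, 11 of its 9984. The second had 10 and 3, 13 of its 9306. JUND had 12 of its 1308 peaks in the type II cluster (0.917%, 95% Clopper-Pearson interval 0.475 to 1.60%) and 0 in the type I cluster, which allows a share of up to 0.229%, taking 3 counts as the limit (the exact upper limit is 0.282%). Together, the clusters make up 0.0610% of the span of the lists. They held 0.110% of the first ETS1 list, 0.140% of the second and 0.917% of the JUND list. GABPA had 1 peak of 2478 (0.0404%) and PANC1 ETS1 1 of 409 (0.244%), both in the type I cluster. Taken likewise, ELK4 with 0 of 337 allows a share of up to 0.890% (exact limit 1.09%), and ELF1 with 0 of 256 allows up to 1.17% (exact limit 1.43%). Depths are unknown and the lists differ in length, so the counts do not rank the factors. Intervals and limits cover counting error only.

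KRT7, a type II keratin of simple and glandular epithelium, had the most peaks of the 7 genes. The first ETS1 list had a peak of 9381 bp over the gene position (chr12:52624460-52633840), the fifth widest of that list, and a peak of 8110 bp at chr12:52636380-52644489, the seventh widest. Peaks of 1054 bp and 499 bp lay beside them. Together these 4 peaks covered 19044 bp of 21758 bp (87.5%) from 52624460 to 52646217. The list holds 9343 groups of peaks less than 5 kb apart, of which 16 (0.171%) hold at least 4 peaks, and the KRT7 group ranked 2 by covered length. The second list, whose intervals are all at most 501 bp, had a window at the gene position (chr12:52626985-52627484) and another at chr12:52643879-52644372.

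JUND had 5 peaks within the same stretch, the first of them over the KRT7 position (chr12:52626767-52627234). The others began at 52630594, 52635262, 52637694 and 52641384, and the last of them, 1776 bp wide, was number 21 by width of the 1308 JUND peaks. No other group in the JUND list had 5 peaks less than 5 kb apart, so the KRT7 group is 1 of 1237 (0.0808%). All 5 JUND peaks overlapped a peak of the first ETS1 list. That list covers 87.5% of the stretch, so an overlap there was close to given for any peak. The JUND peak at the gene position shared 250 bp with the second-list ETS1 window, with centres 234 bp apart. The centres of the other 4 lay 1.85 to 8.28 kb from the nearest second-list window. KRT7 had 1 close ETS1 and JUND pair at its position and 4 further JUND peaks that met intervals of the first ETS1 list and no window of the second.

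**Figure D2:**
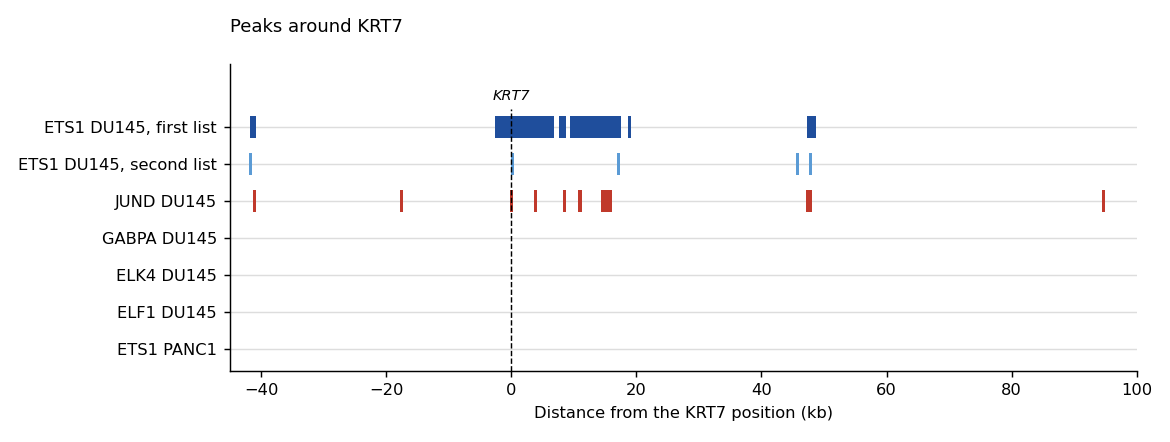
Peaks of the 7 lists around KRT7, to scale, as distance in kb from the gene position (dashed line). The 4 intervals of the first ETS1 list run on from the gene position with small gaps, 5 JUND peaks lie among them, and the second ETS1 list has windows near both ends of the stretch.

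Beyond the 10 kb window, further peaks lay on both sides of KRT7, at distances like that of the peak nearest to KRT17. At 41 kb before the gene position, an ETS1 region (chr12:52585123-52586234) met a JUND peak through its first-list interval alone. The second-list window lay 130 bp from that JUND peak, with centres 639 bp apart. At 47 kb beyond the gene position, another ETS1 region (chr12:52674198-52675706) met a JUND peak of 975 bp. This JUND peak overlapped both lists, and its centre was 341 bp from that of the second-list window. In RefSeq gene order (GRCh38.p14) the next protein-coding genes after KRT7 are the hair keratins KRT86, KRT81 and KRT83, but no hg19 annotation was used here to place this region in a gene. JUND peaks without ETS1 lay at chr12:52609205-52609699 and chr12:52721376-52721975.

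KRT18, the type I partner of KRT8, had the narrowest spacing of ETS1 and JUND. The first ETS1 list had a peak of 5469 bp over its position (chr12:53342132-53347600), number 24 by width. The second-list window (chr12:53343369-53343869) lay wholly inside the JUND peak (chr12:53343266-53344058), with centres 43 bp apart. A further second-list window lay 4.26 kb before the gene position, at chr12:53338242-53338741, and met no peak of another list.

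KRT8 lies 44 kb from KRT18 by the positions of the rule, and the peaks at these positions differed. The first ETS1 list had a peak of 2492 bp over the gene position (chr12:53296901-53299392), and the second a window within it (chr12:53297976-53298469). A second-list window 9.03 kb away, at chr12:53289475-53289971, had no partner in the first list. JUND had no peak within 10 kb of the KRT8 position of the rule. Its nearest peak, 19.7 kb away between the rule positions of KRT8 and KRT18 (chr12:53318675-53319338), lay 55 bp from a second-list ETS1 window (chr12:53319394-53319894) without touching it. By the positions of the rule, ETS1 and JUND thus lay together at KRT18 and ETS1 alone at KRT8. This rests on a single KRT8 position and does not establish a difference between the genes. Another RefSeq start of KRT8 lies farther from KRT5, on the side of this JUND peak. It is 406 kb from the KRT5 promoter in GRCh38.p14, against 385 kb between the rule positions in hg19. These distances differ by about as much as the 19.7 kb from the rule position to the JUND peak. From that start KRT8 may therefore have JUND nearby as well. Peaks were not counted from that start.

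RefSeq promoters (GRCh38.p14, 250 bases before to 50 after a start) were at hand for KRT8 and KRT5, and they are shown for the ETS core letters they hold. KRT8 has several starts in RefSeq. Its promoter lies 406 kb from that of KRT5, whereas the hg19 positions of the rule lie 385 kb apart. The KRT8 sequence therefore belongs to another start than the position at which the ETS1 peaks of KRT8 were counted, and it is not the sequence of those peaks. Because the peaks are in hg19, neither window was laid over a peak. Capitals mark GGAA on either strand (TTCC on the other) and, in KRT8, the 8 letters of CCGGAAGT, read here as ACTTCCGG on the opposite strand. Both sequences are written 5′ to 3′ on the gene strand, which is the minus strand.
KRT8, chr12:52926420-52926719: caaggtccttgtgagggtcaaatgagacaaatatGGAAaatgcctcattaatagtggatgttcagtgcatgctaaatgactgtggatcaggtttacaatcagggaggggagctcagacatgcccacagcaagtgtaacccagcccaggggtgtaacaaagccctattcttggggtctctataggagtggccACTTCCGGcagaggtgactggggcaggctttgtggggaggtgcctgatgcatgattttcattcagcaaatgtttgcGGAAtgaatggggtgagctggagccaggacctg
KRT5, chr12:52520345-52520644: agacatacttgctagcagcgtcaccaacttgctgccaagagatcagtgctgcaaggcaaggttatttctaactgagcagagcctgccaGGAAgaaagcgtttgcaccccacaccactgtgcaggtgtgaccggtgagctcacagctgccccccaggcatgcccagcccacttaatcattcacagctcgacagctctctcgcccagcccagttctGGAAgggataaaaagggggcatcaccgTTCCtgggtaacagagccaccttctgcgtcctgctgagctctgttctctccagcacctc

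GGAA was common and CCGGAAGT was not. KRT8 has 3 GGAA matches and KRT5 also 3, and 95.5% of 35116 RefSeq promoters hold at least 1. CCGGAAGT, a high-affinity ETS sequence that contains GGAA, occurs in 4.14% of these promoters. Of 34 keratin genes with a promoter in the table, KRT8 alone holds it, 59 bases before the start shown. TGANTCA, the AP-1 sequence, occurs in 7.71% of all promoters and in none of the 34 keratin genes. CAGGAAGTG (1.40% of promoters) and CAGGAAATG (0.820%) were also in none of the 34. A match describes letters and not binding, and no match concerns this window only.

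KRT19, a small type I keratin of simple and ductal epithelium, was the one named gene of the type I cluster with a peak. The first ETS1 list had a peak of 1827 bp (chr17:39683316-39685142) over its position and the second a window within it (chr17:39684231-39684728). The nearest JUND peak was 792 kb away, outside the cluster, and the nearest GABPA peak 160 kb away. Like the rule position of KRT8, that of KRT19 had ETS1 peaks and no JUND peak within 10 kb.

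**Figure D3:**
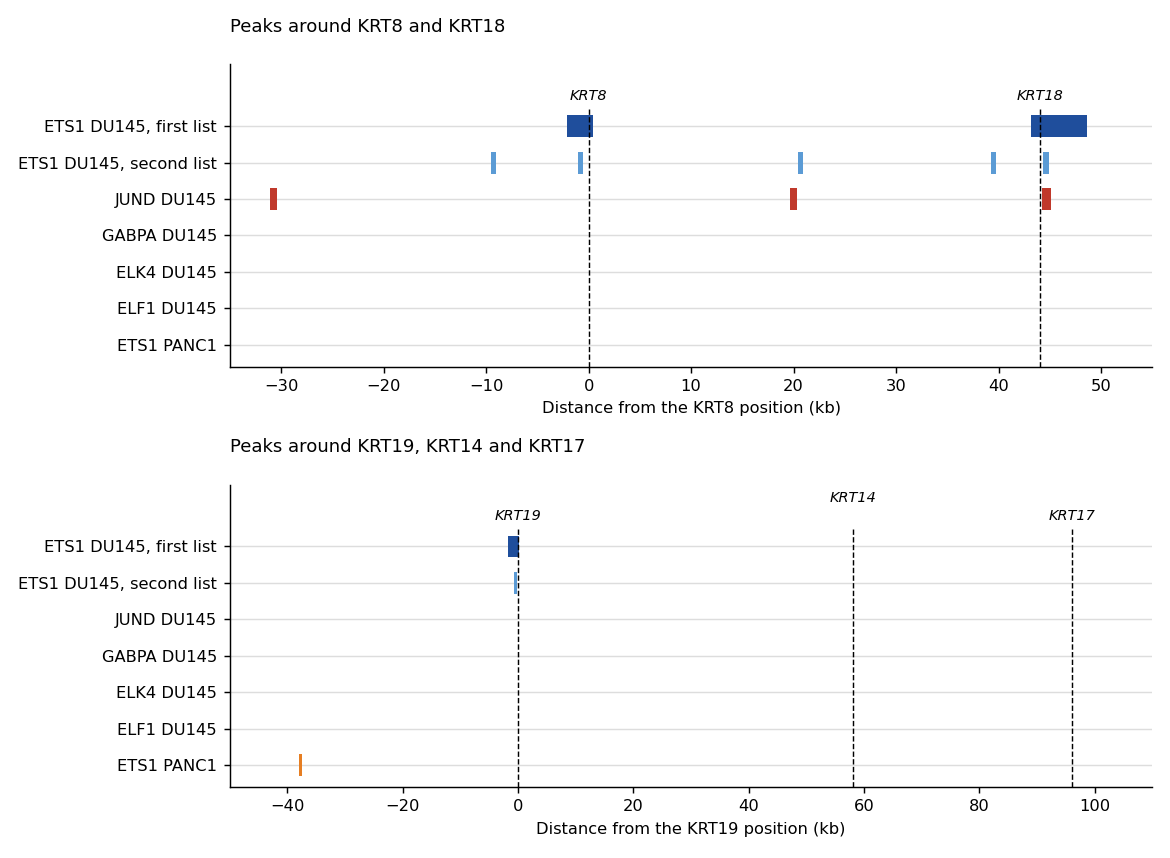
Peaks of the 7 lists around KRT8 and KRT18 (top, kb from the KRT8 position) and around KRT19, KRT14 and KRT17 (bottom, kb from the KRT19 position), to scale, with dashed lines at the genes. At KRT18 the JUND peak and both ETS1 peaks coincide. The KRT8 and KRT19 positions of the rule have ETS1 peaks without JUND within 10 kb, and KRT14 and KRT17 have no peak beside them.

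PANC1 ETS1 had a single peak in the clusters. It lay 37.5 kb before the KRT19 position (chr17:39646978-39647472) and met no DU145 ETS1 peak of either list. Over the whole PANC1 list, 74.1% of 409 peaks lie in a DU145 ETS1 region, that is, in overlapping intervals merged across both DU145 ETS1 lists, and 79.7% meet a peak of either list. In RefSeq order the protein-coding genes just before KRT19 are KRT36, KRT13 and KRT15, and the peak was not placed among them. In the type II cluster PANC1 had no peak, and its nearest one to KRT7 was 2048 kb away. The PANC1 list is far shorter than the DU145 lists, and its depth is unknown, so at a site without a PANC1 peak, absence of binding and lack of detection cannot be told apart.

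KRT5, KRT14 and KRT17 had their nearest peaks beyond the 10 kb window. For KRT5 the nearest was a JUND peak at 192 kb, followed by the first ETS1 list at 238 kb. KRT5 stands inside the longest stretch of the type II cluster without a peak of any list, 546 kb from 52721976 to 53267884. By number, 1122 of 12033 peak-free stretches are at least that long, and the median stretch is 61.8 kb. By length, these 1122 make up 64.1% of the span of the lists. For KRT14 the nearest peak was that of ETS1 at KRT19, 57.9 kb away. For KRT17 it was an ETS1 peak 41.0 kb away at chr17:39822028-39823660, outside the bounds of the cluster.

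**Figure D4:**
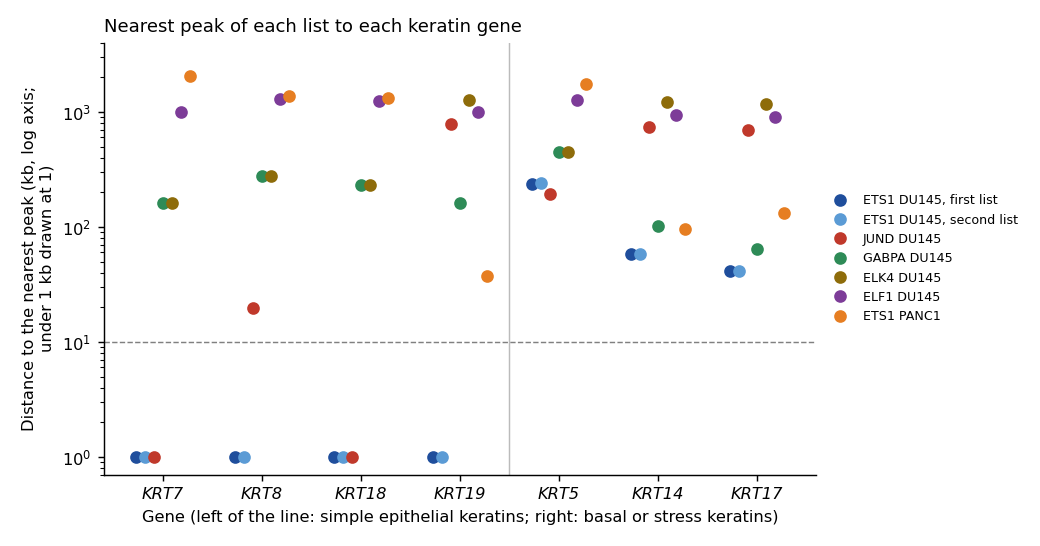
Distance in kb (log axis) from each of the 7 genes to the nearest peak of each list, with simple epithelial keratins left of the vertical line and basal or stress keratins right of it. Distances under 1 kb are drawn at 1, and the dashed line marks 10 kb. Both DU145 ETS1 lists lie under the dashed line at KRT7, KRT8, KRT18 and KRT19 and above it at KRT5, KRT14 and KRT17.

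The remaining type I peaks stood far from the 7 genes. An ETS1 region at chr17:38974751-38976007 held the GABPA peak of the clusters (chr17:38975094-38975590), with centres 62 bp apart. Of the whole GABPA list, 93.1% lies in an ETS1 region. The site lies 709 kb before KRT19, and the longest peak-free stretch of that cluster, 671 kb, begins beside it. By number, 904 stretches are at least as long, and they make up 59.6% of the span. Another ETS1 region (chr17:38803337-38804980) lies close to the lower bound of the cluster and met no other list. No hg19 annotation was used here, so neither was given a gene, and the same holds for the 47 other keratin genes of the clusters, 22 of which stand with KRT5 between KRT7 and KRT8 in RefSeq order.

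In all, 9 ETS1 regions lay in the clusters, 6 in the type II and 3 in the type I cluster. JUND met 5 of the 9, against 4.89% of 8183 ETS1 regions. All 5 were in the type II cluster, at KRT7 (2 regions), at KRT18 and at the regions 41 kb before and 47 kb beyond KRT7. GABPA met 1 of the 9, against 28.1%. ELF1 (2.79%), ELK4 (3.25%) and PANC1 ETS1 (3.62%) met none. With 9 regions, the exact 95% intervals run from 21.2 to 86.3% for JUND and from 0.281 to 48.2% for GABPA. They treat the regions as independent, which neighbours in a cluster are not, and the clusters were chosen with the peaks known. Neither interval is a test against the share of all regions.

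Width moves with the JUND overlap. Of the 35 ETS1 regions at least 5000 bp wide, 57.1% met JUND, against 14.7% of those from 2000 to under 5000 bp and 3.57% of narrower ones, in classes set after the values were seen. The 3 widest keratin regions, at KRT7 and KRT18, all met JUND, the KRT8 region in the middle class did not, and 2 of the 5 narrow ones did. The part of width in the keratin overlap was not tested. With peak centres within 200 bp, 1 of the 9 regions met JUND, that of KRT18, against 3.37% of all regions.

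**Figure D5:**
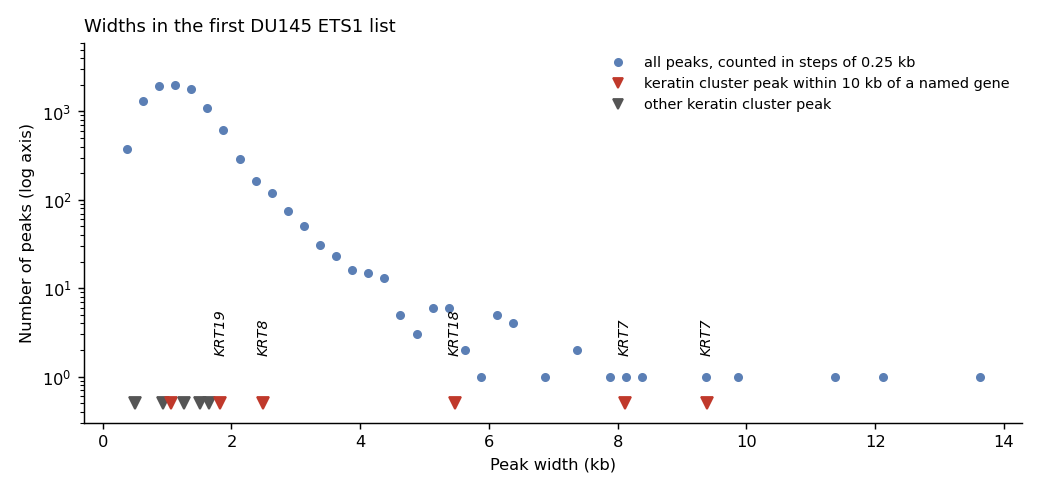
Widths of all peaks of the first DU145 ETS1 list, as the number of peaks (log axis) in steps of width (kb), with the 11 keratin cluster peaks as triangles. The KRT7 peaks of 9381 and 8110 bp and the KRT18 peak of 5469 bp stand in the sparse upper tail, and the KRT8 and KRT19 peaks stand lower.

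Seen from JUND, 7 of its 12 keratin peaks lay in an ETS1 region, against 31.3% of its whole list, and 8 of 12 met a peak of either ETS1 list, against 39.8%. Their nearness to each other means they are not independent, since 5 share the KRT7 stretch. The ETS1 lists were also compared with each other. Of the first list, 9 of 11 keratin peaks met the second, against 82.0% of that list. Of the second, 9 of 13 met the first, against 88.4%.

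Line order differed between the factors at KRT7. No source used here explains the order of the lines. The ETS1 peaks over the KRT7 position stood at line 210 of 9984 and line 431 of 9306. The other ETS1 peaks of the KRT7 stretch stood later, at lines 3769, 6849 and 9571 of the first list and 5177 of the second. The ETS1 peaks nearest the KRT18 position stood at lines 645 and 355, and the further second-list window before KRT18 at line 9000. KRT19 stood at lines 1013 and 884, and KRT8 later, at lines 3902 and 3642. The JUND peak over KRT7 stood at line 1271 of 1308, near the end, and that of KRT18 at line 190. The peaks nearest the KRT18 position were thus early in both ETS1 lists and in the JUND list, whereas those over the KRT7 position were early for ETS1 and late for JUND.

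The bounds of the rule passed close to other peaks. Just outside the type II cluster, both ETS1 lists and JUND had overlapping peaks at chr12:52538643-52542691, and an ETS1 peak lay beyond KRT18 at chr12:53399497-53401110. An ELK4 peak (chr12:52463489-52463979) and a GABPA peak (chr12:52463441-52463941) lay together within 100 kb of the lower bound. Both DU145 ETS1 lists also had a peak there (chr12:52463057-52464508 and chr12:52463337-52463832). Beyond KRT17, a GABPA peak lay at chr17:39845398-39845895 within an ETS1 peak. Inside the type II cluster, the ETS1 regions nearest the bounds were those 41 kb before KRT7 and at KRT18. Inside the type I cluster, they were the region at chr17:38803337-38804980 and that at KRT19.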

How the data were processed

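ChIP-seq peak lists of 6 immunoprecipitated samples were analysed. The authors deposited 7 lists with 3 columns, chromosome, start and end, and no score, fold or count, so depth is unknown. Positions are in hg19, per the labels. Bowtie2 2.0.6 is listed in the submitters' processing notes, with no role stated. No peak caller or threshold is given in the sources used here. Starts are printed counting from 1. Peaks sharing at least 1 bp overlapped, and merged intervals holding a peak of each DU145 ETS1 list are called ETS1 regions. Gene positions came from the selection rule, gene order and promoters from RefSeq. All 7 named keratin genes are described. Intervals of shares are exact Clopper-Pearson intervals, and a share of 0 is given a floor of 3 counts, which lies below the exact upper limit. The overlap step, tested on simulated data, recovered 3 of 3 simulations. Members and lists were chosen with earlier results of these data known. Python 3.11.15, NumPy 2.4.6, SciPy 1.17.1 and Matplotlib 3.10.9 were used. Alternatives covered cluster bounds, the ETS1 list used, the overlap definition, the gene window and the place of the GGAA match.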

Additional observations from a re-analysis of the deposited data

How the results depend on the processing

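Of 73 recomputed values, 62 stayed within 1.5 times the reported one, and 11 moved. With bounds widened by 100 kb the first ETS1 list had 20 peaks, the second 23, GABPA 3 and ELK4 1, and ETS1 regions numbered 17, because more sequence was included. Peaks of either ETS1 list, merged, gave 15 regions. With peak centres within 200 bp, 1 ETS1 region met JUND and 1 JUND peak met an ETS1 region. With intervals of 500 bp around each centre these were 2 of 6 keratin regions (3.85% of all 7732 regions) and 2 JUND peaks, and KRT7 and KRT18 no longer had an ETS1 region, since the centres of the broad and narrow lists lie apart there. The share of the whole JUND list that met an ETS1 region was not computed under either of these overlap definitions. Summed over the 7 genes, JUND peaks within 25 kb numbered 9, against 4 within 10 kb. The JUND peak at chr12:53318675-53319338 lay within 25 kb of both KRT8 and KRT18 and was counted at each. The 4 genes with ETS1 were 4 within 5 kb and 25 kb as well. No paired analysis was possible because each group has 1 sample, and no replicate could be left out. Motifs within peaks were not run, since no hg19 genome was used.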
